A study of Homo sapiens with 4 samples.

Results

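The genes described here encode the factors that start, carry out and end protein synthesis on cytosolic ribosomes. They comprise the eukaryotic initiation factors (EIF), the 4E-binding proteins, the elongation factors (EEF) with the kinase EEF2K, the release factors ETF1 and GSPT1, and the poly(A)-binding proteins PABPC1 and PABPC4. The genes were chosen by symbol, with earlier results of these data known. All 57 listed symbols were found among the 55764 genes of the deposited expression table, and 56 had enough signal to be tested.

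Initiation begins when the scaffold EIF4G and the helicase EIF4A gather on the capped end of an mRNA that EIF4E has bound, while the small ribosomal subunit, loaded by EIF3, EIF1, EIF1A, EIF5 and EIF2 with initiator tRNA, scans for the start codon. EIF2B recharges EIF2 with GTP, and stress kinases that phosphorylate EIF2 slow that step. EEF1A then delivers aminoacyl-tRNA, EEF2 moves the ribosome along, and many of these factors are themselves encoded by mRNAs that begin with a run of pyrimidines, through which the kinase mTOR controls their translation.

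Bulk RNA was sequenced from TE5, an established human oesophageal squamous cell carcinoma line, as 2 groups of 2 libraries. Cells of the ETS1 group carried a lentiviral vector that overexpressed the human transcription factor ETS1 from the CMV promoter, and control cells, whose genotype is labelled WT, carried the empty backbone. Both groups were infected in the presence of Polybrene, went through selection and were grown in RPMI-1640 with serum, penicillin and streptomycin. The labels do not say whether the 2 libraries of a group came from separate infections or cultures, so p-values measure only the spread between these libraries, which may be technical.

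Values are FPKM, the fragments per kilobase of gene scaled to the library total, and changes are differences of log2(FPKM + 1) between the ETS1 and control libraries. A change was called at a Benjamini-Hochberg adjusted p under 0.05 in limma, a linear model that shares its variance estimate over all 14306 genes whose FPKM averaged 1 or more. With 2 libraries against 2, an exact permutation test has 6 arrangements and a smallest possible two-sided p of 0.333. ETS1 itself was listed at 0.491 and 0.509 FPKM in the controls and at 1.84 and 1.87 FPKM in the ETS1 libraries, a log2 change of 0.93 (SE 0.062, adjusted p = 0.000704 by limma). On scales that do not damp low values the change was larger, 1.89 on recovered reads by limma's voom, 1.70 with a pseudocount of 0.1 and 1.84 in the authors' deposited table. The reads behind the tables, recovered from the values, numbered 40356723 and 44119604 in the controls and 57269984 and 56502875 in the ETS1 libraries, 1.35 times as many on average. Of 6 squamous epithelial markers, only SOX2 reached 1 FPKM, while KRT5, KRT14, KRT6A, TP63 and DSG3 were at or near 0 in all 4 libraries. The summed squamous level was 2.72 to 3.13 FPKM in the controls and 3.56 to 3.86 FPKM in the ETS1 libraries. Of 5 simple epithelial markers, 4 reached 1 FPKM in at least 1 library, CDH1 in ETS1 replicate 1 only. KRT8 was listed at 3.91 and 3.87 FPKM in the controls and 6.48 and 6.59 FPKM in the ETS1 libraries. KRT18 went the other way, at 10.24 and 10.55 FPKM against 8.35 and 8.29 FPKM. Of 4 mesenchymal markers, 2 reached 1 FPKM. Their sum followed VIM, listed at 241.5 and 239 FPKM in the controls and 315.5 and 314 FPKM in the ETS1 libraries, and its part in the results was not tested. The 2 endothelial markers summed to 0.0506 FPKM or less, and the leukocyte markers PTPRC and CD3E stayed at or under 0.0117 and 0.0696 FPKM.

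Of the 56 tested factors, 34 fell and 12 rose in the ETS1 libraries, and 10 did not pass the test. Among all genes tested, 28.4% were called lower and 30.7% higher, 59.1% in either direction, against 60.7% lower and 21.4% higher among the factors. The median log2 change was -0.14 for the factors and 0.016 for all genes tested. The changes were small: 4 factors (7.14%) moved by more than 0.5 on the log2 scale, all of them lower (EIF3J, EIF4EBP1, EEF1A2 and EIF2B3), against 11.0% of all genes tested. The 2 groups of libraries did not overlap for 52 of 56 factors, 14 above and 38 below the controls, where 82% of all genes tested showed no overlap. Because values are relative to the library total in bulk RNA, fewer cells with a transcript and less of it per cell cannot be told apart. The summed FPKM of the 57 genes made up 1.66% and 1.67% of the control libraries and 1.51% and 1.50% of the ETS1 libraries. The 20 tested genes of the mitochondrial genome, which count toward the same library totals, had a median log2 change of 0.86. The part of that rise in the factors' changes was not tested.

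Trimmed-mean and median-of-ratios scaling both gave 35 factors lower and 11 higher, each 1 away from the counts above. Quantile normalization, which gives all libraries the same distribution of values, left 18 factors lower and 17 higher with a median of -0.02. Of the 14306 genes tested in that setting, 3898 were lower and 4237 higher. Lower and higher calls were thus of similar number among the factors and among all genes there. The release of the filter on low values left 25 of 57 factors lower and 6 higher, where 3238 of 35055 genes were lower and 3622 higher. Without ETS1 replicate 2, 22 were lower and 7 higher. Across 16 alternative analyses at the same threshold, 19 of the 46 called factors kept their call and direction: EIF1AD, EIF5, EIF6, EIF2S1, EIF2S2, EIF2B1, EIF2B3, EIF2B4, EIF3B, EIF3D, EIF3H, EIF3J, EIF4EBP1, EIF4EBP2, EEF1A1, EEF1A2, EEF1B2, PABPC1 and PABPC4. Quantile normalization ended the calls of EIF1, EIF1B, EIF2A, EIF2D, EIF3E, EIF3F, EIF3G, EIF3I, EIF3K, EIF3M, EIF4A3, EEF2, EIF5A, ETF1 and GSPT1. It also brought EIF2S2 to -0.12, EIF3D to -0.19, EIF3H to -0.13 and EEF1B2 to -0.20, and EEF1A1 and PABPC1 to 0.41 and 0.38. The release of the filter ended the calls of EIF1, EIF5B, EIF3G, EIF3K, EIF3M, EIF4A1, EIF4B, EIF4E3, EEF1E1, EEF2, EEF2K, EIF5A, EIF5A2, ETF1 and GSPT1. Leaving out ETS1 replicate 2 ended those of EIF1, EIF2D, EIF2B5, EIF3F, EIF3G, EIF3K, EIF3L, EIF3M, EIF4A1, EIF4A3, EIF4B, EIF4E3, EIF4G3, EEF2, EEF2K, EIF5A2, ETF1 and GSPT1.

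Abundant genes and short genes as classes were also lower. Among genes with a mean of 100 FPKM or more, 61.6% of 404 were lower and the median log2 change was -0.18, while 11 of 14 factors at that level were lower and their median was -0.23. Between 20 and 100 FPKM, 50.3% of 2254 genes were lower with a median of -0.11, and 17 of 28 factors were, with a median of -0.12. Between 5 and 20 FPKM, 27.8% of genes were lower with a median of 0.034, and 6 of 9 factors with a median of -0.23. At 1 to 5 FPKM, 31.3% of genes were higher with a median of 0.057, and so were 4 of 5 factors with a median of 0.26. By length, as inferred from the tables, 36.9% of genes under 2000 bases were lower and all 6 factors of that size (EIF1B, EIF6, EIF3I, EIF4EBP1, EEF1A2 and EEF1B2), while at 7000 bases and over 48.2% of genes were higher and 6 of 14 factors. From 2000 to 4000 bases 36.6% of genes and 11 of 14 factors were lower, and from 4000 to 7000 bases 24.4% of genes and 12 of 22 factors. The median change of the factors lay under that of all genes in each length class, at -0.44 against -0.12 under 2000 bases, -0.20 against -0.04 from 2000 to 4000, -0.14 against 0.050 from 4000 to 7000 and 0.054 against 0.13 from 7000 bases. The parts that level and length had in the factors' calls were not tested.

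**Figure D1:**
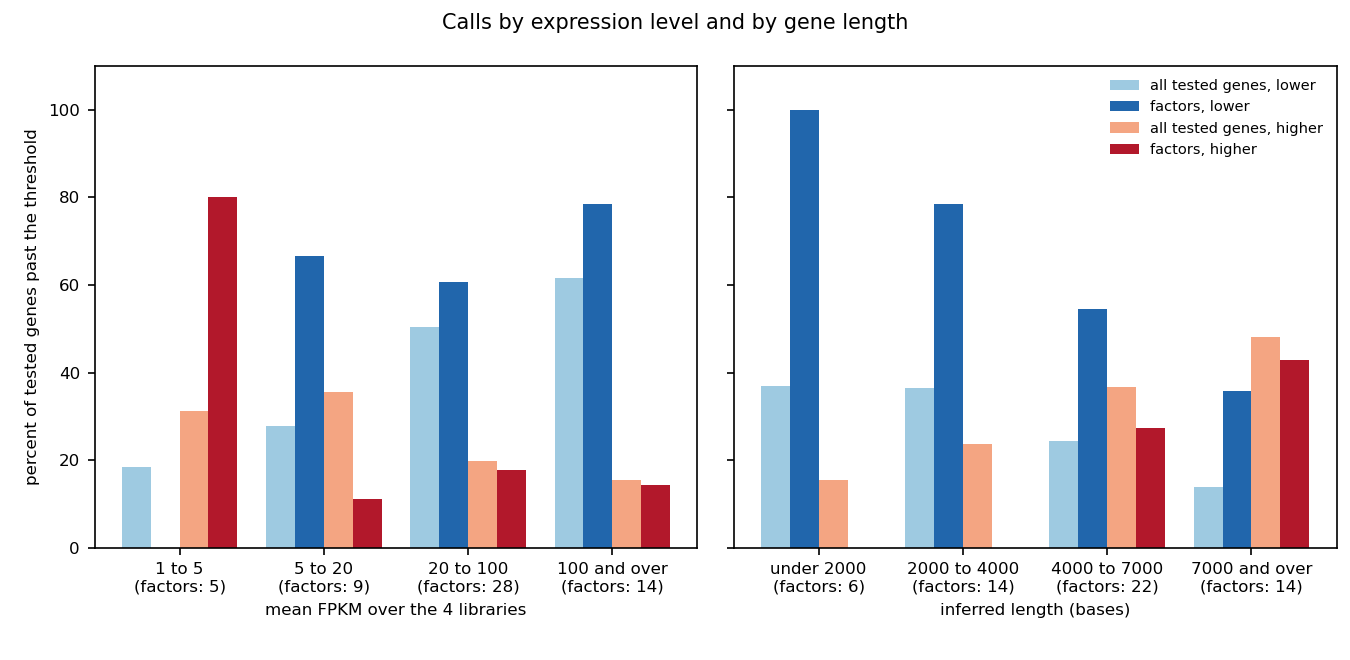
Percent of tested genes called lower (blue) or higher (red) in the ETS1 libraries, pale for all genes and dark for the translation factors, in classes of mean FPKM (left) and inferred length in bases (right); the number of factors stands under each class. The share of lower calls among all genes climbs from 18.5% at 1 to 5 FPKM to 61.6% at 100 FPKM and over, and 17 of 28 and 11 of 14 factors are lower in the 2 upper classes of level.

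The factors that scan for and select the start codon fell in 6 of 9 cases, with 2 higher. EIF6, which keeps the large ribosomal subunit from joining the small one too early, moved most. Its level was 38.8 and 41.2 FPKM in the controls and 29.04 and 28.6 FPKM in the ETS1 libraries, a log2 change of -0.46 (SE 0.038, limma adjusted p = 0.00103). The groups were far apart relative to the gap between duplicates. EIF1, which guards against start sites in a poor sequence setting, was measured at 505 and 518 FPKM in the controls and at 459 and 445 FPKM in the ETS1 libraries (log2 change -0.18, limma adjusted p = 0.00783). Its paralog EIF1B had 68.6 and 70.0 FPKM against 61.7 and 59.96 FPKM, a log2 change of -0.18 as well. Both lost the call under quantile normalization, with adjusted p of 0.214 for EIF1 and 0.544 for EIF1B by limma (over the alternatives fitted here the limma adjusted p spanned 0.000284 to 0.214 for EIF1 and 0.000686 to 0.544 for EIF1B). EIF1AD, a protein with an EIF1A-like domain, fell by 0.23 on the log2 scale. EIF2A and EIF2D, which can bring tRNA to the ribosome without EIF2, fell by 0.17 and 0.12, and under quantile normalization the change of EIF2D was 0.015.

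Both factors that act when the start codon has been found moved the other way. EIF5, which makes EIF2 hydrolyse its GTP, rose from 32.0 and 31.9 FPKM in the controls to 36.3 and 35.7 FPKM in the ETS1 libraries (log2 change 0.17, SE 0.027, limma adjusted p = 0.00577). EIF5B, the GTPase of subunit joining, had 26.2 and 27.6 FPKM in the controls and 31.7 and 29.9 FPKM in the ETS1 libraries (log2 change 0.19, SE 0.043, limma adjusted p = 0.0169). Neither pair of groups overlapped, but the call on EIF5B was lost without ETS1 replicate 1, without the filter on low values (limma adjusted p = 0.0692) and with the chromosome's median removed (log2 change 0.10, limma adjusted p = 0.0880). EIF1AX overlapped between groups, at 32.5 to 37.2 FPKM in the controls and 34.5 to 36.2 FPKM in the ETS1 libraries.

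**Figure D2:**
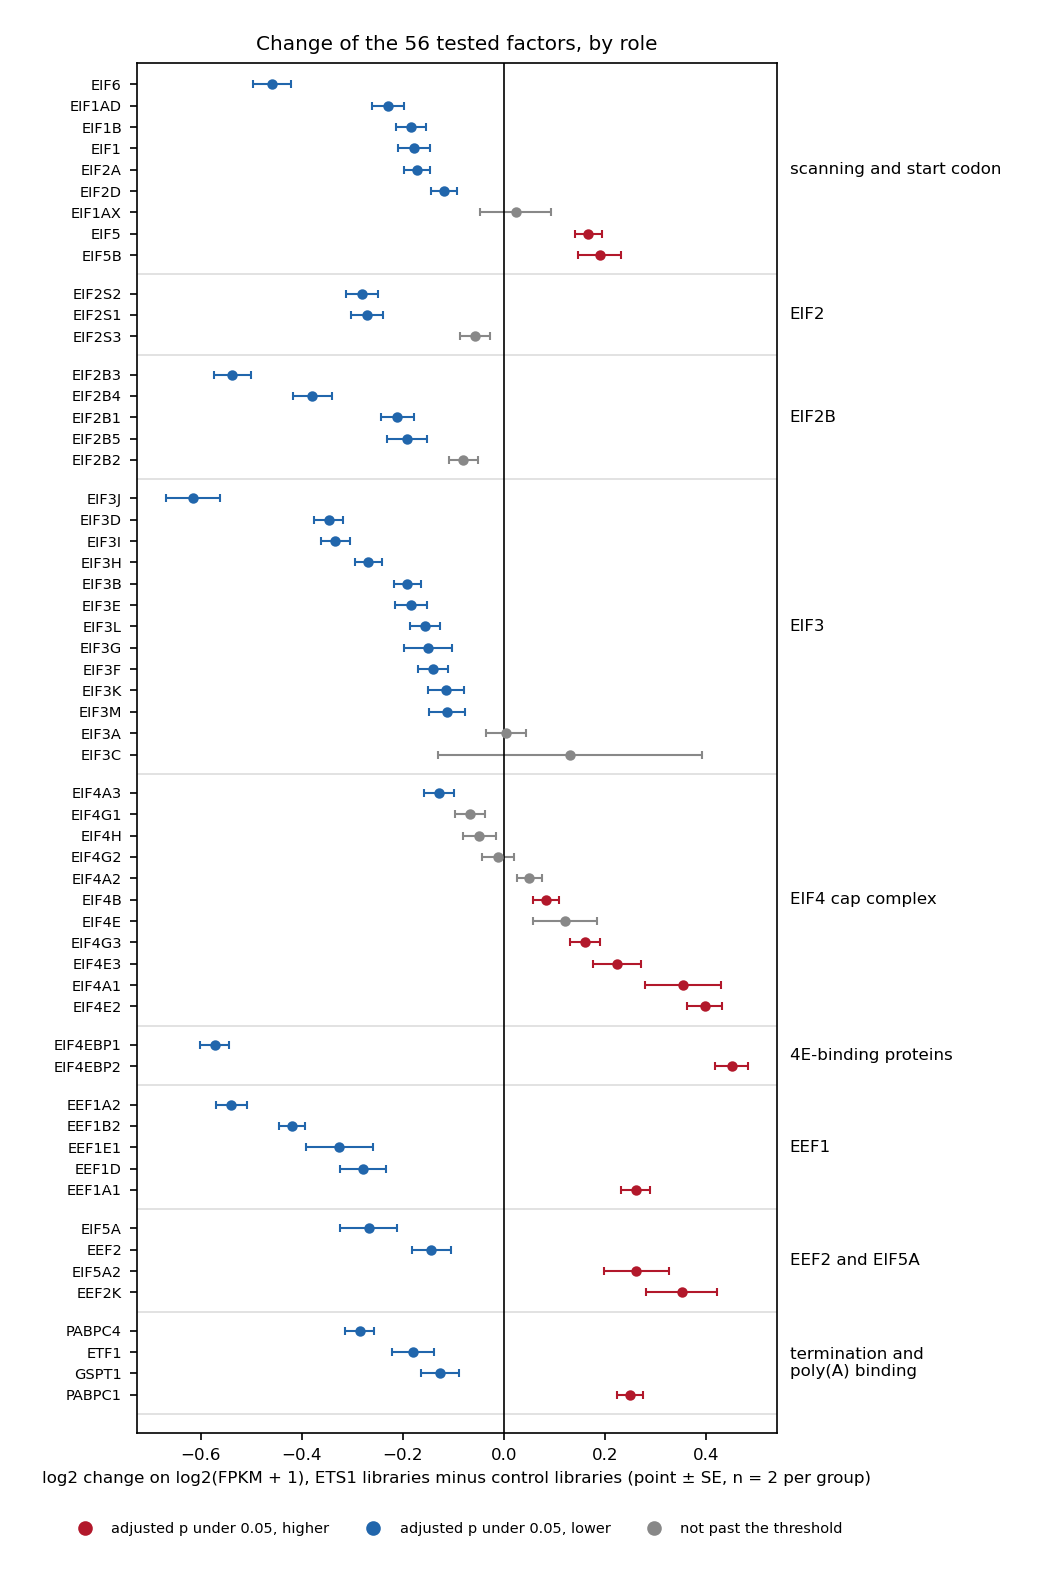
Log2 change on the log2(FPKM + 1) scale, ETS1 minus control, for the 56 tested factors grouped by role; points are the limma estimate, bars its SE (n = 2 per group), and colour shows the call. EIF2, EIF2B and EIF3 hold no red point, the cap complex holds 5 red and 1 blue, and the 4E-binding proteins, EEF1 and EIF5A groups hold both.

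EIF2, the trimer that carries initiator tRNA, was lower in its alpha and beta subunits and did not pass the test in gamma. EIF2S1, the alpha subunit that stress kinases phosphorylate, was measured at 18.3 and 17.9 FPKM in the controls and at 15 and 14.6 FPKM in the ETS1 libraries (log2 change -0.27, SE 0.032, limma adjusted p = 0.00244). EIF2S2, the beta subunit, stood at 118 and 118 FPKM against 99.4 and 94.9 FPKM (log2 change -0.28, SE 0.032, limma adjusted p = 0.00224). EIF2S3, the gamma subunit that binds GTP and the tRNA, had 158 and 152 FPKM in the controls and 149 and 148 FPKM in the ETS1 libraries, with a log2 change of -0.06 (limma adjusted p = 0.160). Its alternatives ranged from -0.19 to 0.15 on the log2 scale and from 0.00413 to 0.457 in limma adjusted p. The median change of its neighbours on the chromosome was 0.13, and with that removed it was called lower, while under quantile normalization it was called higher (limma adjusted p = 0.0174). The difference between the subunits was not tested.

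The 5 subunits of EIF2B, the exchange factor of EIF2, all lay below the controls in both ETS1 libraries, and 4 passed the test. The catalytic gamma subunit EIF2B3 moved most, from 14.4 and 14.7 FPKM to 9.95 and 9.45 FPKM (log2 change -0.54, SE 0.037, limma adjusted p = 0.000749). The regulatory delta subunit EIF2B4 followed, at 10.4 and 10.1 FPKM against 7.81 and 7.45 FPKM (log2 change -0.38, SE 0.038, limma adjusted p = 0.0016). EIF2B1, the alpha subunit, fell by 0.21 and EIF2B5, the catalytic epsilon subunit, fell by 0.19 on the log2 scale. EIF2B2, the beta subunit, had a log2 change of -0.08 (limma adjusted p = 0.0613). It passed under 4 of 16 alternatives, with adjusted p from 0.00729 to 0.253. Under quantile normalization 4 subunits of EIF2B were also lower, with a median of -0.23. Summed over its subunits, EIF2B had 0.827 times the control FPKM and EIF2 had 0.895 times.

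EIF3, the largest initiation factor and the platform that holds the small subunit to the mRNA, was lower in 11 of 13 subunits and higher in none, with a median log2 change of -0.16. Under quantile normalization 4 subunits were lower and 2 higher (EIF3A and EIF3L, the latter against its direction), so the extent of the EIF3 decrease depended on that choice. Without ETS1 replicate 2, 6 subunits were lower and 1 higher, the latter EIF3C. The 5 subunits outside the core octamer were all lower. EIF3J, a loosely bound subunit at the decoding centre, fell from 47.4 and 43.3 FPKM to 28.4 and 30.0 FPKM (log2 change -0.62, SE 0.054, limma adjusted p = 0.00119), the largest change of any factor tested on this scale. With the chromosome's median removed EIF3J had -0.39 and EIF2B3 -0.59, and under quantile normalization -0.52 and -0.54. EIF3D, which can bind the cap of selected mRNAs, stood at 153 and 157 FPKM in the controls and 122 and 120.5 FPKM in the ETS1 libraries (log2 change -0.35, SE 0.028, limma adjusted p = 0.000995). EIF3I, a propeller-shaped subunit, was measured at 399 and 400.0 FPKM against 321 and 312 FPKM (log2 change -0.33, SE 0.028, limma adjusted p = 0.00113). That call was lost under quantile normalization, where the log2 change was -0.02. EIF3B, the scaffold of that module, fell by 0.19, and EIF3G, its RNA-binding subunit, fell by 0.15 with a limma adjusted p of 0.0457 that was lost in 9 of 16 alternatives (limma adjusted p from 0.00767 to 0.597).

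Of the 8 octamer subunits, 6 were lower and 2 did not pass. EIF3H fell by 0.27 on the log2 scale, EIF3E by 0.18, EIF3L by 0.16, EIF3F by 0.14, EIF3K by 0.12 and EIF3M by 0.11. Under quantile normalization the change was 0.048 for EIF3K, 0.076 for EIF3L and -0.01 for EIF3E (limma adjusted p = 0.752). With the chromosome's median removed EIF3E had -0.02 (limma adjusted p = 0.602) and EIF3H -0.10 (still called). The call was lost in 8 of 16 alternatives for EIF3K and in 7 of 16 for EIF3M. EIF3A, the largest subunit, overlapped between groups with a log2 change of 0.0047. EIF3C had 5.38 and 5.83 FPKM in the controls but 8.53 and 4.47 FPKM in the ETS1 libraries. The ETS1 duplicates of EIF3C thus lay on either side of the controls, and the sign of its change turned with the library left out (log2 change 0.53 without ETS1 replicate 2 and -0.27 without ETS1 replicate 1, both called by limma). EIF3CL, its near-identical copy, was listed at 0.943 and 4.47 FPKM in the controls and 0.832 and 2.55 FPKM in the ETS1 libraries, and reads of the pair may be split between them.

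**Figure D3:**
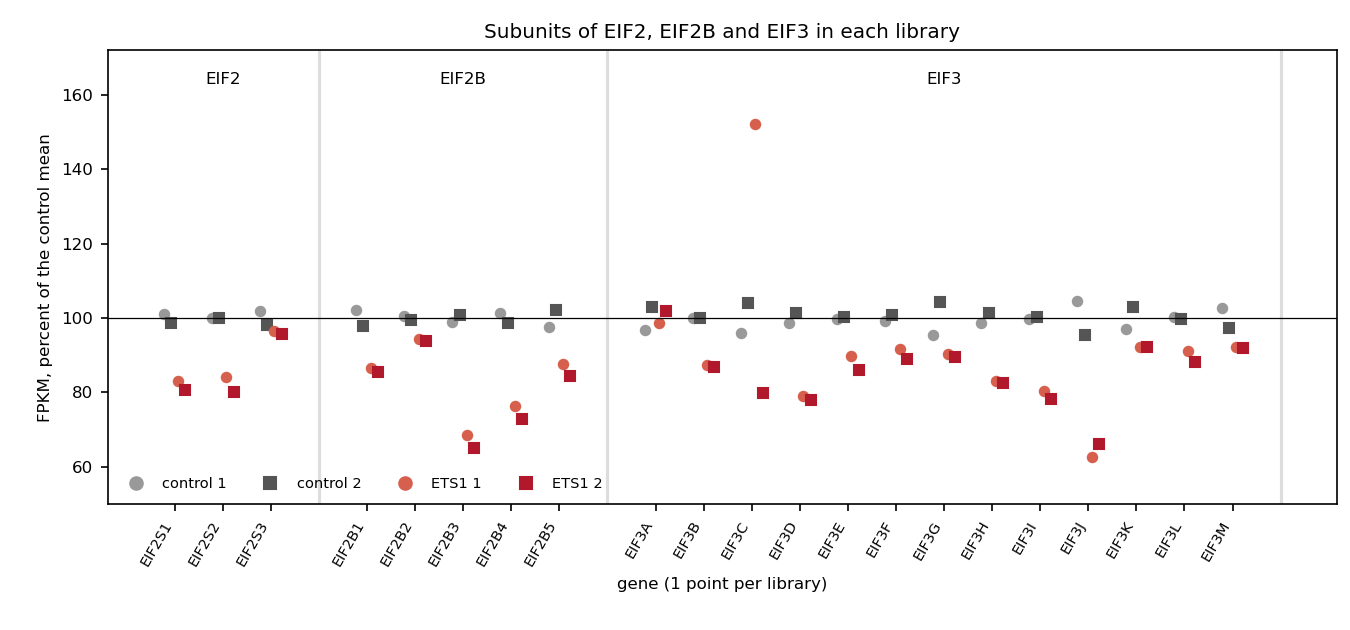
FPKM of each subunit of EIF2, EIF2B and EIF3 in the 4 libraries, as percent of the mean of the 2 control libraries (line at 100). Both ETS1 points lie under both control points for all subunits but EIF3A and EIF3C, with EIF3J at 62.6% and 66.3% and EIF2B3 at 68.5% and 65.1% of the control mean.

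In the cap-binding complex 5 of 11 genes rose, 1 fell and 5 did not pass, with a median log2 change of 0.083, and the difference from the other groups was not tested. These counts leaned on single choices: without ETS1 replicate 2 only 1 gene was higher and none lower, and without the filter on low values 2 were higher. With the local medians removed, as described further on, 2 were higher and 2 lower with a median of 0.02. EIF4E2, a cap-binding relative of EIF4E that represses translation, rose from 7.97 and 7.70 FPKM to 10.6 and 10.7 FPKM (log2 change 0.40, SE 0.034, limma adjusted p = 0.00114). EIF4E3, the third cap-binding paralog, rose from 4.14 and 3.87 FPKM to 4.74 and 4.95 FPKM (log2 change 0.22, SE 0.047, limma adjusted p = 0.0137). EIF4E itself, the major cap-binding protein, was listed at 1.80 and 1.68 FPKM in the controls and 1.88 and 2.08 FPKM in the ETS1 libraries, a log2 change of 0.12 that did not pass (limma adjusted p = 0.161). The test on recovered reads called EIF4E higher (log2 change 0.19, limma voom adjusted p = 0.0293, over the alternatives fitted here 0.0293 to 0.923).

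Among the scaffolds, EIF4G3 rose from 20.6 and 20.8 FPKM to 22.9 and 23.6 FPKM (log2 change 0.16, SE 0.03, limma adjusted p = 0.00887). EIF4G1, the main scaffold, had 46.9 and 48.6 FPKM in the controls and 45.5 and 45.6 FPKM in the ETS1 libraries (log2 change -0.07, limma adjusted p = 0.108). EIF4G2, a relative that lacks the EIF4E-binding site, overlapped between groups, at 102 and 97.3 FPKM against 98.3 and 99.01 FPKM. Of the helicases, EIF4A1 rose from 1.55 and 1.37 FPKM to 2.00 and 2.28 FPKM (log2 change 0.35, SE 0.075, limma adjusted p = 0.0136), on 321 to 688 reads per library, and the call was lost without ETS1 replicate 2. EIF4A2 did not pass, at 37.1 and 37.4 FPKM against 38.6 and 38.6 FPKM (log2 change 0.05, limma adjusted p = 0.147). EIF4A3, the paralog that marks exon junctions, fell from 32.6 and 32.7 FPKM to 30.3 and 29.3 FPKM (log2 change -0.13, limma adjusted p = 0.0175). EIF4B, a helper of the helicase, had a log2 change of 0.083 (limma adjusted p = 0.0457), and 12 of 16 alternatives did not keep that call (adjusted p from 0.00237 to 0.819). EIF4H, a second helper, did not pass (log2 change -0.05).

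The 4E-binding proteins, which hold EIF4E away from the scaffold unless mTOR phosphorylates them, moved in opposite directions. EIF4EBP1 fell from 408 and 416 FPKM in the controls to 274 and 279 FPKM in the ETS1 libraries (log2 change -0.57, SE 0.029, limma adjusted p = 0.000486). EIF4EBP2 rose from 21.6 and 21.0 FPKM to 29.03 and 29.9 FPKM (log2 change 0.45, SE 0.032, limma adjusted p = 0.000789), the largest increase of any factor tested on this scale (by voom on recovered reads EIF4A1 was above it, at 0.56 against 0.47). Duplicates of both genes lay close together and the groups were far apart. EIF4EBP1 remained the more abundant of the pair, and their summed FPKM was 0.707 times the control level. Per length, EIF4EBP2 made up 5.04% and 4.80% of the pair in the controls and 9.58% and 9.68% in the ETS1 libraries.

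The elongation factor EEF1 split between its forms. EEF1A1, the general carrier of aminoacyl-tRNA, rose from 472 and 482 FPKM to 574 and 569 FPKM (log2 change 0.26, SE 0.028, limma adjusted p = 0.00194). EEF1A2, the form typical of muscle and nerve, fell from 153 and 157 FPKM to 108 and 105 FPKM (log2 change -0.54, SE 0.03, limma adjusted p = 0.000557). The share of EEF1A2 in their summed FPKM was 24.5% and 24.6% in the controls and 15.8% and 15.6% in the ETS1 libraries. EEF1B2, a subunit of the complex that recharges EEF1A with GTP, fell from 452 and 451 FPKM to 336 and 339 FPKM (log2 change -0.42, SE 0.026, limma adjusted p = 0.000644). EEF1D, a second exchange subunit, fell from 23.1 and 24.9 FPKM to 19.9 and 19.2 FPKM (log2 change -0.28, SE 0.046, limma adjusted p = 0.00623). EEF1E1, which sits in the complex of aminoacyl-tRNA synthetases, was measured at 9.80 and 8.72 FPKM against 6.89 and 7.46 FPKM (log2 change -0.33, SE 0.066, limma adjusted p = 0.012). EEF1G, the gamma subunit, was listed at 0, 0, 0.00588 and 0.00596 FPKM and was not tested. In GENCODE 29, 99.9% of its exon bases are shared on the same strand with another annotated gene, AP002990.1.

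EEF2, the translocase, had the highest FPKM of any factor, unless EEF1A1 is summed with its copy EEF1A1P5, described further on. EEF2 stood at 1173 and 1239 FPKM in the controls and 1090 and 1092 FPKM in the ETS1 libraries (log2 change -0.14, SE 0.038, limma adjusted p = 0.0274). Its call was lost in 6 of 16 alternatives, with limma adjusted p from 0.00174 to 0.996. EEF2K, the kinase that inhibits EEF2, rose from 3.53 and 3.01 FPKM to 4.35 and 4.54 FPKM (log2 change 0.35, SE 0.07, limma adjusted p = 0.0114). EIF5A, which carries the amino acid hypusine and eases stalled peptide bonds, fell from 169 and 152 FPKM to 132 and 134 FPKM (log2 change -0.27, SE 0.056, limma adjusted p = 0.0129). EIF5A2, its rare paralog, rose from 1.57 and 1.57 FPKM to 1.95 and 2.22 FPKM (log2 change 0.26, SE 0.065, limma adjusted p = 0.0223). EIF5A2 rested on 355 to 703 reads per library, and its call was lost with either control or with ETS1 replicate 2 left out. Without ETS1 replicate 2 EEF2K was not called, and without ETS1 replicate 1 neither EEF2 nor EIF5A was. Under quantile normalization EIF5A had -0.07 (limma adjusted p = 0.323), and without the filter its limma adjusted p was 0.0700.

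Both release factors were lower: ETF1, which reads the stop codon, fell by 0.18 and GSPT1, its partner GTPase, fell by 0.13 on the log2 scale, but neither was called with 1 or the other ETS1 library left out. PABPC1, the main cytosolic poly(A)-binding protein, rose from 228 and 229 FPKM to 273 and 270 FPKM (log2 change 0.25, SE 0.026, limma adjusted p = 0.00168). PABPC4 fell from 24.2 and 23.8 FPKM to 19.6 and 19.4 FPKM (log2 change -0.29, SE 0.028, limma adjusted p = 0.00156).

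Within 4 pairs of paralogs the members moved in opposite directions, each past the threshold: EEF1A1 and EEF1A2, EIF4EBP2 and EIF4EBP1, EIF5A2 and EIF5A, and PABPC1 and PABPC4. The share of PABPC4 in its pair went from 9.61% and 9.41% to 6.69% and 6.71%, and that of EIF5A2 from 0.919% and 1.022% to 1.46% and 1.63%. EIF1B, in contrast, held between 11.87% and 11.95% of its pair in all 4 libraries. Within the trios, EIF4E2 made up 57.3% and 58.1% of the EIF4E genes in the controls and 61.5% and 60.4% in the ETS1 libraries. EIF4G3 made up 12.2% and 12.5% of the EIF4G genes against 13.7% and 14.0%, and EIF4A1 2.18% and 1.91% of the EIF4A genes against 2.82% and 3.26%. These shares leave out the processed copies described next, compare FPKM per length, were not tested, and rest on inferred gene lengths. These lengths did not cover the exons of both EEF1A genes alike. The inferred length was 5940 bases for EEF1A1, against 5948 exon bases in GENCODE, but 1835 for EEF1A2, against 4910. The size of the EEF1A2 share therefore depends on the lengths used. In reads, EEF1A1 had 113446 to 195907 per library and EEF1A2 had 10916 to 12768.

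**Figure D4:**
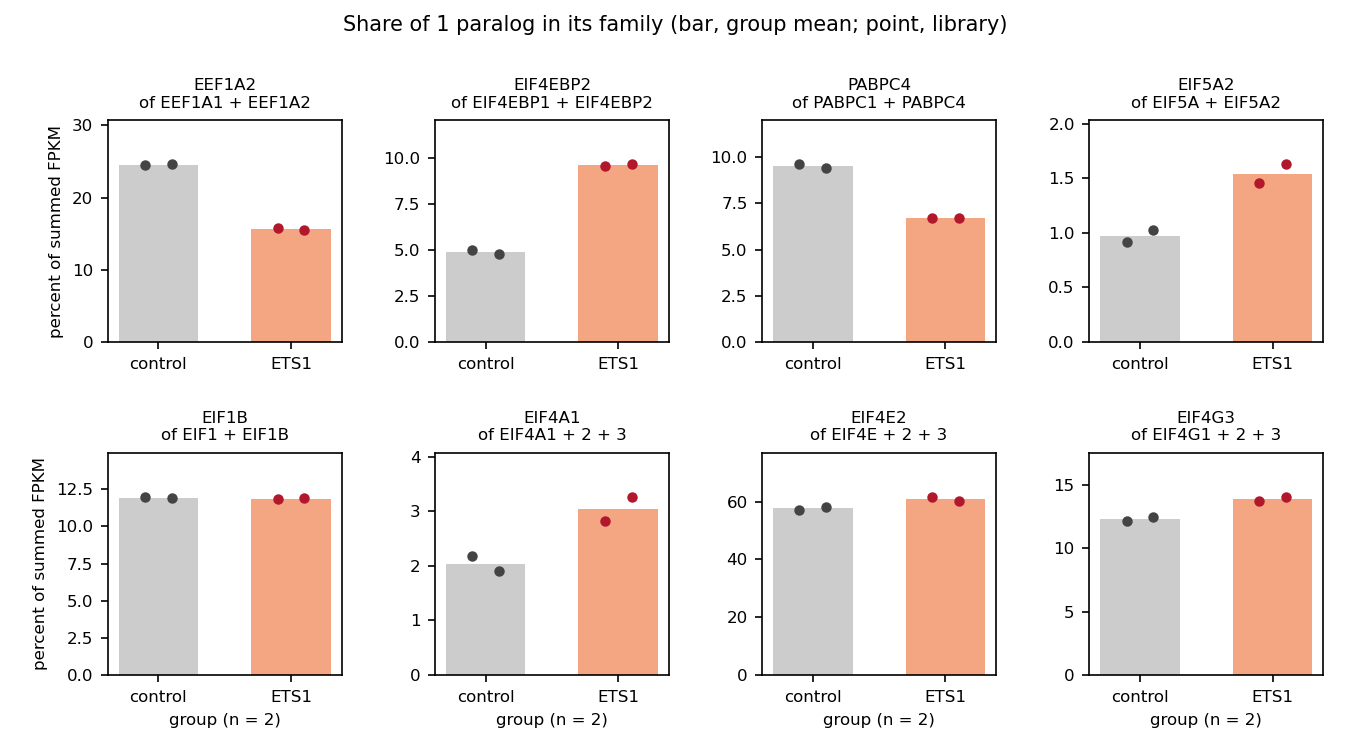
Share of 1 paralog in the summed FPKM of its family, in percent, for 8 families; bars are group means and points the 2 libraries of each group, and each panel has its own axis from 0. EEF1A2 drops from a mean of 24.6% to 15.7% and EIF4EBP2 climbs from 4.92% to 9.63%, while EIF1B stays at 11.9%.

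Several factors have processed copies elsewhere in the genome that may take up part of their reads. EEF1A1P5, a copy of EEF1A1, was listed at 812 and 915 FPKM in the controls and 1032 and 954 FPKM in the ETS1 libraries, above EEF1A1 itself. Its log2 change was 0.20 (limma adjusted p = 0.0608), and the sum of both genes was 1284 and 1396 FPKM against 1605 and 1523 FPKM. EIF4A1P10 was listed at 26.8 and 27.0 FPKM in the controls and 25.1 and 22.8 FPKM in the ETS1 libraries, far above EIF4A1, and its log2 change of -0.16 (limma adjusted p = 0.0408) had the opposite sign. Summed, EIF4A1 and this copy had 28.4 and 28.4 FPKM against 27.1 and 25.1 FPKM, so the increase of EIF4A1 did not hold for the sum. Together they made up 28.96% and 28.8% of the EIF4A genes with the copy in the controls and 28.2% and 27.01% in the ETS1 libraries. With EEF1A1P5 added to its family, the share of EEF1A2 was 10.65% and 10.1% against 6.30% and 6.44%. In GENCODE 29, 48.6% of EIF4A1's exon bases also lie in AC016876.2 on the same strand. EIF1AXP1 exceeded EIF1AX, at 120 to 126 FPKM, and EIF3FP3 exceeded EIF3F, at 61.7 and 55.9 FPKM against 47.8 and 51.1 FPKM. EEF1B2P3 changed in the direction of its source gene, by -0.47 (limma adjusted p = 0.000939). Levels of EEF1A1, EIF4A1, EIF1AX, EIF3F, EIF3C and EEF1G are therefore uncertain, and the effect of shared exons on other factors was not tested.

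Part of the factors lay in stretches of the genome where most genes had moved. EIF3J (chr15:44537057-44563029, plus strand) sits where the 40 nearest tested genes had a median log2 change of -0.33. With that median removed, a step chosen after seeing the data, EIF3J was still lower by limma, at -0.29 (adjusted p = 0.00614, over the alternatives fitted here 1.43e-06 to 0.0138). EIF4E2 (chr2:232550052-232583644, plus strand) lies among neighbours with a median of 0.44, above its own change of 0.40. EIF4E3 (chr3:71675416-71754773, minus strand) lies among neighbours with a median of 0.22, equal to its own. With the local median removed neither was called, at -0.05 for EIF4E2 and -0.0015 for EIF4E3. EEF1D, on chromosome 8, lay close to its neighbours at -0.30, and its change without them was 0.020 (limma adjusted p = 0.716, over the alternatives fitted here 9.22e-05 to 0.716). EIF4EBP1, on the same chromosome, had neighbours at -0.26 and kept a change of -0.31. EEF1A1 had neighbours at 0.16 and PABPC1 at 0.14, and both were still higher with these removed, by 0.10 and 0.11. EIF4EBP2 (chr10:70404379-70428618, plus strand) went against its neighbours at -0.09, and EEF1B2 (chr2:206159585-206162928, plus strand) against its own at 0.12. EEF1A2 (chr20:63488012-63499322, minus strand), EIF6 (chr20:35278911-35284985, minus strand) and EIF2B3 (chr1:44850522-44986722, minus strand) lay among genes with medians between -0.04 and 0.010. With the local medians removed, 35 factors were lower and 8 higher.

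**Figure D5:**
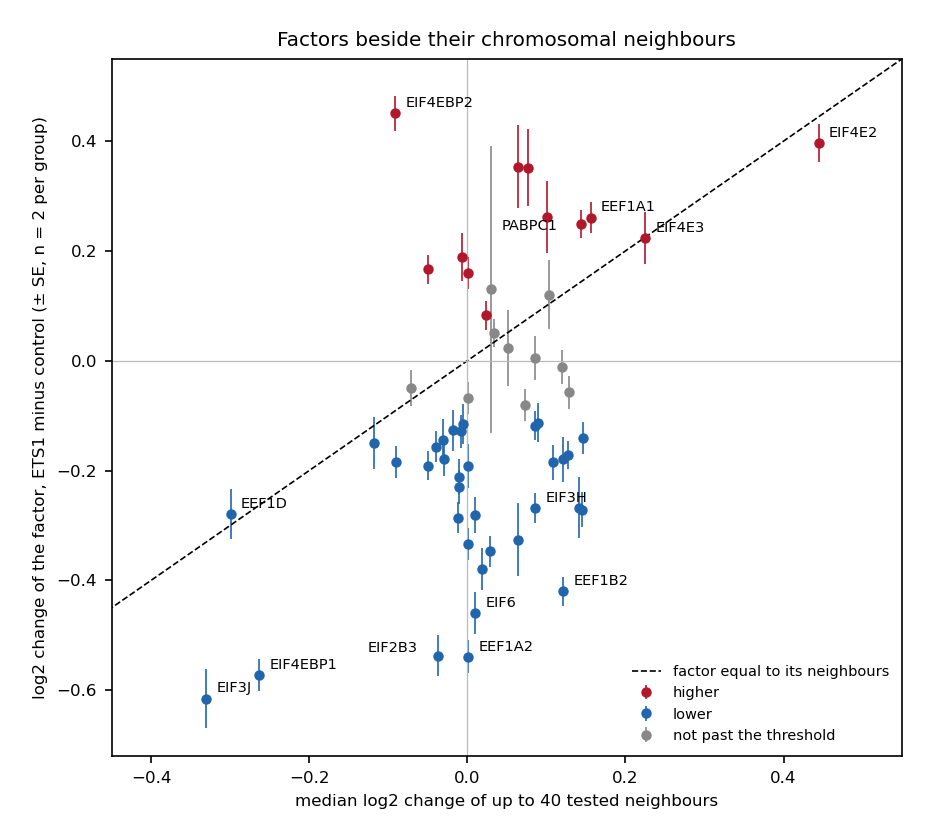
Log2 change of each tested factor (vertical axis, with SE, n = 2 per group) against the median log2 change of the 40 nearest tested genes (horizontal axis); the dashed line marks equality. EEF1D, EIF4E2 and EIF4E3 lie at the line, EIF3J and EIF4EBP1 lie below it at negative neighbour medians, and most other factors lie below it near 0.

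Start sites were read from RefSeq promoters (GRCh38.p14), which matched 46 of the 57 genes. A start with C as the first transcribed base followed by at least 4 pyrimidines, the mark of the mRNAs under mTOR control, was found in 11 of 46 factors (23.9%) in 5.49% of the promoters of tested genes (7.45% of those called lower and 4.37% of those called higher) and in 4.04% of all 27305 promoters; this strict form was counted after the sequences had been seen. A looser form, with the same run beginning anywhere within 20 bases of the start, was found in 29 of 46 factors (63.0%) and in 50.8% of all promoters. Of the 11 strict starts, EEF1A1 and EIF4B were higher, EIF2A, EIF2D, EIF3D, EIF3F, EIF3K, EIF3M and EEF2 were lower, and EIF2S3 and EIF4A2 did not pass. Factors of both directions thus carried this start, and 5 of them are shown from 10 bases before to 15 bases after the start, 5′ to 3′, with each run of C and at least 4 pyrimidines, up to its last pyrimidine, in capitals. EEF1A1 is at chr6:73521018-73521042 (minus strand), EIF4B at chr12:53006446-53006470 (plus), EEF2 at chr19:3985449-3985473 (minus), EIF3D at chr22:36529152-36529176 (minus) and EIF3F at chr11:7987327-7987351 (plus).
EEF1A1: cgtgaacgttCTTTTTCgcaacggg
EIF4B: tcatccgggtCTTTTgcgttCTCTT
EEF2: cgtcagcgttCTCTTCCgccgtcgt
EIF3D: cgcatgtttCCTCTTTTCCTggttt
EIF3F: CTTCCgCCTCCTTCTTTCTCgacaa
Of the 10 factors known as such mRNAs, 9 were tested: EEF1A1, EIF4B and PABPC1 were higher, and EEF1B2, EEF1D, EEF2, EIF3E, EIF3F and EIF3H were lower. Their median log2 change was -0.14, against -0.13 for the other 47 factors.

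The ETS core with its flank, CCGGAAG on either strand, was found in the 300 bases around the start of 13 of 46 factors (28.3%), against 10.7% of all promoters. Among promoters of tested genes the share was 19.8%, with 22.5% for genes called lower and 18.8% for genes called higher. It stood in 9 of 25 matched factors that were lower, 3 of 11 that were higher and 1 of 9 that did not pass. The match is one of letters only, and binding was not measured. The stretch of 60 bases before the start is shown for 3 lower factors and 1 higher factor, 5′ to 3′, with the motif in capitals, because the motif stood in factors of both directions. They are EEF1B2 (chr2:206159549-206159608, plus strand), EIF2B1 (chr12:123633687-123633746, minus), EIF3I (chr1:32222347-32222406, plus) and EIF4E2 (chr2:232550629-232550688, plus).
EEF1B2: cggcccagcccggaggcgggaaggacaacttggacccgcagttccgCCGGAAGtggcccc
EIF2B1: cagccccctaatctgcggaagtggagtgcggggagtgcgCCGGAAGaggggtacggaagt
EIF3I: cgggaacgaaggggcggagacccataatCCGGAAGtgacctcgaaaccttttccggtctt
EIF4E2: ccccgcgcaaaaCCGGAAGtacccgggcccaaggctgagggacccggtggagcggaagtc

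Regulators and partners of the factors were followed through a separate list of 80 symbols, of which 76 were found and 74 tested: 24 were higher and 21 lower (32.4% and 28.4%, close to the 30.7% and 28.4% of all genes tested), with a median log2 change of -0.0041. Without ETS1 replicate 1, 14 of them were higher, and likewise without ETS1 replicate 2. Of the 8 genes that set EIF2 phosphorylation, 5 were higher and 2 lower, and without ETS1 replicate 1 3 were higher and none lower. The double-stranded RNA kinase EIF2AK2 rose by 0.47 on the log2 scale and the endoplasmic reticulum kinase EIF2AK3 by 0.27, while the amino acid sensor EIF2AK4 fell by 0.25 and the haem-regulated kinase EIF2AK1 fell by 0.09. The call on EIF2AK1 was marginal (limma adjusted p = 0.0374) and was lost with a replicate block (limma adjusted p = 0.0937), and 1 gene of this list was lower without the filter, under quantile normalization or without the intensity trend. PPP1R15A and PPP1R15B, which direct the phosphatase that reverses the mark, rose by 0.27 and 0.22, and IMPACT, an inhibitor of EIF2AK4 activation, rose by 0.18. The neighbours of EIF2AK4 on chromosome 15 had a median of -0.38, and with it removed the change was 0.13 (limma adjusted p = 0.0550). EIF2AK2 had 0.31 with its local median removed (limma adjusted p = 0.00515). With the chromosome's median removed EIF2AK4 had -0.02 (limma adjusted p = 0.713), and IMPACT had -0.06 with its local median removed (limma adjusted p = 0.184).

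Of 18 tested regulators of the cap complex and mTOR, 8 were higher and 3 lower (44.4% and 16.7%, against 30.7% and 28.4% of all genes tested). With either ETS1 library left out 2 were higher and 2 lower. With the local medians removed 3 were higher and 6 lower, and of the original 8 only MTOR and PDCD4 were still called higher, while LARP1, CTIF, DDX3X, DHX29 and RPS6KB1 were not called. With the chromosome medians removed 4 were higher and 3 lower, and PDCD4, GIGYF2 and RPS6KB1 were those of the 8 still called. PDCD4, which blocks the helicase EIF4A, rose by 0.36 on the log2 scale, and GIGYF2, a partner of EIF4E2, rose by 0.29. GIGYF2 lies in the same stretch as EIF4E2, and with its local median of 0.44 removed it was called lower, at -0.16 (limma adjusted p = 0.0213). MKNK2, a kinase of EIF4E, fell by 0.29, and MLST8, a subunit of the mTOR complexes, fell by 0.29. Of 9 tested poly(A) partners, 3 were higher and 3 lower (33.3% each, close to the 30.7% and 28.4% of all genes tested). PABPC1L and PAN3 were among the higher ones, each by 0.47. Among the lower ones were PAIP2, an inhibitor of PABPC1 (log2 change -0.30), and TOB1 (log2 change -0.20). Of the 9 genes that make hypusine on EIF5A or diphthamide on EEF2, 5 were lower and none higher by limma. The share of lower calls was 55.6%, against 28.4% of all genes tested. DPH2 fell by 0.61, DPH7 by 0.54, DPH6 by 0.47, DPH3 by 0.32 and DOHH, which completes hypusine, by 0.19, while DHPS, which begins it, had a log2 change of -0.03 (limma adjusted p = 0.699). With the local medians removed DPH2 was at -0.64 and DPH7 at -0.13, both still called, while DPH6 (-0.19), DPH3 (-0.11) and DOHH (-0.11) were not, with limma adjusted p of 0.0649, 0.0534 and 0.113. DPH1 and DPH5 were called lower there, at -0.18 and -0.26.

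In the authors' deposited table, 35 of 56 factors were lower and 11 higher at an adjusted p under 0.05, against 25.9% lower and 25.3% higher among all genes with an adjusted p there. Of the 46 factors called by limma, 45 were also called in the authors' deposited table, all 45 in the same direction. EIF4B was not called there, and EIF4G1 was called there only, with a log2 change of -0.09 in the authors' deposited table (adjusted p = 0.0352).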

How the data were processed

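RNA-seq of 2 ETS1 and 2 control libraries was analysed. The authors deposited FPKM per gene and their own comparison. The authors used HISAT2, HTSeq and DESeq2 with the builds hg38 and GRCh38, all named without versions or roles in the submitters' processing notes. Annotation release and strand use are not given in the sources used here. Per the file headers, the comparison table holds a mean normalized count per gene, a signal the authors averaged across all 4 libraries, as well as the authors' log2 fold changes with standard errors and the authors' p-values and adjusted p-values. The adjusted p-value is missing for 969 of its 16652 genes. FPKM agreed cell by cell between the tables (0 cells differed).

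The values were FPKM, so limma 3.58.1 (R 4.3.3) was run on log2(FPKM + 1), with an intensity trend, for genes whose FPKM averaged at least 1, two-sided, with Benjamini-Hochberg adjustment. This scale understates changes of low genes. Whole reads were recovered from FPKM and the mean normalized counts (99.6% of values within 0.01 of a whole read) and tested with limma's voom as an alternative. Other alternatives were another pseudocount (0.1), 2 filters, 3 scalings, a replicate block, no trend, a threshold of 0.01, removal of chromosome or local medians, the authors' comparison and leaving out each library. The main limma fit, but none of the alternatives, was also run on simulated counts whose spread was set in advance. The outcome is not given here. Same-numbered libraries did not deviate together (r = -0.046 over genes), so numbers were not taken as pairs.

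Positions came from GENCODE 29 (matched for 84.2% of tested genes) and promoters from RefSeq. Values in all libraries are given for the 10 higher and 10 lower called factors with the largest changes, for paralogs, and for EIF2 subunits. Of the regulator list, the 2 largest changes per direction and sublist were named, with EIF2AK1 to EIF2AK4, PDCD4, DHPS and DOHH; others named from it were chosen after their values were seen. The factors and lists were chosen with earlier results of these data known. The result of 1 further leukocyte marker is not reported here.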

Additional observations from a re-analysis of the deposited data

How the results depend on the processing

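Higher calls numbered 12, and 6 without the filter on low values or at a threshold of 0.01. Lower calls numbered 34, 18 under quantile normalization and 22 at a threshold of 0.01. With 1 library left out, 7 to 10 factors were higher and 22 to 32 lower, fewest without ETS1 replicate 2. Regulators called higher numbered 24, 14 at a threshold of 0.01 and 14 to 21 with 1 library left out. With a replicate block, 11 factors were higher and 29 lower, and 40 of 46 calls were kept, but the numbers do not pair the libraries. The log2 change turned sign for EIF4E2 (-0.048), EIF4E3 (-0.0015) and EEF1D (0.020) with local medians removed, for EIF4G2 (0.13), EIF2S3 (0.15), EIF3L (0.076), EIF2D (0.015) and EIF3K (0.048) under quantile normalization, and for EIF3C (-0.27 without ETS1 replicate 1 and 0.53 without ETS1 replicate 2); the cause was not tested. Quantile normalization kept 30 of 46 calls. Of 906 values recomputed for the 56 tested factors and ETS1, 794 stayed on their side of the threshold, 90 lost the call, 13 gained one and the 9 above turned sign; 16 of the 794 also changed sign but were called in neither analysis. Trimmed-mean scaling, a shift of 0.02 on the scale of log2 FPKM, kept 45 of 46 calls. Depth was lower in the controls, and factors of 1 to 2 FPKM (EIF4A1, EIF4E and EIF5A2) rest on 321 to 1661 reads per library. With 2 libraries a group, the spread of a single gene is poorly known, and its p-value leans on the variance shared over genes.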

Other observations

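Of 13 tested genes of termination, ribosome rescue and recycling, 4 were higher and 2 lower (30.8% and 15.4%, against 30.7% and 28.4% of all genes tested), so the share of higher calls was that of all genes. LTN1, a ubiquitin ligase that acts on stalled nascent chains, had a log2 change of 0.62 (limma adjusted p = 0.000605), from 4.22 and 4.15 FPKM in the controls to 6.89 and 7.09 FPKM in the ETS1 libraries. GTPBP2 followed at 0.50, PELO, which rescues stalled ribosomes, at 0.46, and GTPBP1 at 0.44. MCTS1, a recycling and reinitiation factor, had a log2 change of -0.38 and ABCE1, the recycling ATPase, -0.21. The call on ABCE1 was marginal (limma adjusted p = 0.0476). It was lost with a replicate block (limma adjusted p = 0.0855) and kept with the local median removed (log2 change -0.35). Of 6 other elongation genes, SECISBP2, a selenoprotein factor, was higher (0.22).

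Of 11 factors of mitochondrial translation, 6 were lower and 3 higher (54.5% and 27.3%), and with either ETS1 library left out 5 were lower and 1 higher. Among all genes tested, 28.4% were lower and 30.7% higher. MRRF, the mitochondrial recycling factor, stood at 22.3 and 23.3 FPKM in the controls and 15.4 and 15.6 FPKM in the ETS1 libraries (log2 change -0.53, limma adjusted p = 0.000651). MTFMT, which formylates the initiator tRNA, stood at 9.07 and 9.13 FPKM against 6.07 and 6.10 FPKM (log2 change -0.51, limma adjusted p = 0.000648). MTFMT lies on chromosome 15 among neighbours with a median of -0.27, and its change was -0.24 with that removed and -0.28 with the chromosome's median removed. MTRF1L (0.26) and GUF1 (0.18) were the largest increases among them. With the local medians removed GUF1 (0.067, limma adjusted p = 0.142) and GFM2 (0.089, limma adjusted p = 0.107) were not called, nor with the chromosome medians removed (limma adjusted p = 0.133 and 0.204), which left MTRF1L as the only higher one.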
